A study of Mus musculus with 6 samples.

Results

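Of the 24421 genes in the count table from mouse pancreatic islets, 9 metabolic genes known to be kept low in mature β cells were followed: Ldha, Slc16a1, Hk1, Hk2, Oat, Acot7, Cat, Mgst1 and Rest. They were chosen by symbol, with earlier results of these data known, and all 9 were among the 13736 genes with enough counts to be tested. RNA was sequenced from isolated islets of C57BL/6J background mice in 3 control libraries and 3 libraries of the genotype C57.DhpsloxP.MIP1-CreERT. In that genotype Dhps, which encodes the deoxyhypusine synthase that modifies the translation factor eIF5A, is floxed, and a tamoxifen-inducible Cre driven by an insulin promoter deletes it in β cells. The labels give no age, sex, diet or tamoxifen schedule, do not spell out the prefix HF in the library names, and do not say whether the controls carried the Cre or the floxed allele. They also do not say that the replicates were separate animals, so p-values measure the spread between these libraries, which may be technical.

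Each library held 21027737 to 23249895 counts, and 15954 to 16370 genes had at least 1 count. The Dhps transcript was 12.6 ± 0.704 CPM (counts per 1000000 of the scaled library size; SD, n = 3) in the controls and 11.96 ± 0.689 CPM (SD, n = 3) in the knockout genotype, a log2 fold change of −0.07 ± 0.12 (SE; edgeR adjusted p = 0.742), so the RNA level of the targeted gene did not separate the groups. The table counts the whole gene and does not show the floxed exons alone. The libraries of the knockout genotype are therefore called KO-labelled (for knockout-labelled), and every direction is given as KO-labelled against control. Across all tested genes 568 rose and 361 fell at an adjusted p under 0.05. Of 11 β cell markers 5 fell and 0 rose, beside 2.63% of all tested genes called lower and 4.14% called higher. Among those that fell was urocortin 3 (Ucn3, from 502 ± 23.2 to 276 ± 56.6 CPM). It kept its call in 4 of the 6 fits that each left out 1 library. Of the 11 log2 fold changes 9 were negative, with a median of −0.65. The summed β cell marker level overlapped between the groups (367390 to 496203 CPM in the controls, 393794 to 448428 CPM in the others). That sum was mostly Ins1, Ins2 and Iapp, with control means of 91075, 306578 and 26118 CPM, so it says little about the other markers.

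Mature β cells couple glucose to insulin release by sending nearly all glycolytic carbon into mitochondria. They keep the high-affinity hexokinases low, make little lactate dehydrogenase A (Ldha) and little monocarboxylate transporter (Slc16a1), and carry low levels of catalase (Cat). Genes that most tissues express but β cells keep low have been called disallowed genes, and the repressor REST, absent from most mature neurons and endocrine cells, is counted among them. The libraries here are from whole islets, in which other endocrine, vascular, stromal, immune and residual exocrine cells also contribute RNA, so fewer cells of a type and less RNA per cell cannot be told apart.

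Promoter sequence is shown for 4 of the genes, the lactate pair and the rarer hexokinase because they hold a shared motif, and Cat because it holds none. Each line is the 250 bases before the annotated start site on the gene's own strand, from RefSeq (GRCm38.p6, the same assembly as mm10), written 5′ to 3′. The coordinates are chr7:46845554-46845803 on the plus strand for Ldha, chr3:104638414-104638663 on the plus strand for Slc16a1, chr6:82774455-82774704 on the minus strand for Hk2 and chr2:103485154-103485403 on the minus strand for Cat. Capitals mark ACGTG, the core of the hypoxia response element, on either strand, and the E-box CACGTG that contains it.
Ldha: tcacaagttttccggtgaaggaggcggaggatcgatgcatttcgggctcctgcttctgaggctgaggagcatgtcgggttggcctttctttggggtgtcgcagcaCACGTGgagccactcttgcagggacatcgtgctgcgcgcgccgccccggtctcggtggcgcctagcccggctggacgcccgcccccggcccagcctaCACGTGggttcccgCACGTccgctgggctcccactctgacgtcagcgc
Slc16a1: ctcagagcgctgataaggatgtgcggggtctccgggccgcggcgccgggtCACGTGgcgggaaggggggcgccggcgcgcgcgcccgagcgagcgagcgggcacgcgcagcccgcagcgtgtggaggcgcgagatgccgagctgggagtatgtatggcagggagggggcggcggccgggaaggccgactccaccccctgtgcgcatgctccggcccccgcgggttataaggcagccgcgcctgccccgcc
Hk2: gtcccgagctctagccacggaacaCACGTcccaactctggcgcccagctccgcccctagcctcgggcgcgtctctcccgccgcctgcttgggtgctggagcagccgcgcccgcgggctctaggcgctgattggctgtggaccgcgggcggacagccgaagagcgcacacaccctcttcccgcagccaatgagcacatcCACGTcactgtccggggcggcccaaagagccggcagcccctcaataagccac
Cat: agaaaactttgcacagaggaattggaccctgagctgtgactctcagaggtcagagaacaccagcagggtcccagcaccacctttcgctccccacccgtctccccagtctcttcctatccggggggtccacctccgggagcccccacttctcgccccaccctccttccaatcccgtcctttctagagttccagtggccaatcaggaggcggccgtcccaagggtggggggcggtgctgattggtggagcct
In the window from 250 bases before to 50 bases after the start site, ACGTG was found on either strand in 5 of the 11 promoter entries of the 8 genes with an entry (1 each for Ldha, Slc16a1, Hk1, Hk2 and Oat), and in 19.6% of all 32851 promoters of that length. Ldha held 3 such sites at the first of its annotated starts and none at the other, starting at −145, −48 and −34. Slc16a1 held them at −200 and 21, and Hk2 at −226 and −52. In Hk1 the match was only in the window of the second annotated start, 39487 bases inside the counted gene. In Oat it lay after the start, at 15. The only Acot7 entry started 7508 bases inside the counted gene, so the outer edge of that gene was not searched. The E-box CACGTG was found in Ldha and Slc16a1 and in 7.15% of all promoters. The core of the REST element was found in none of the 8 genes and in 0.0517% of all promoters. A match describes these letters and is no evidence of binding. G and C made up 67.3% of the 300-base window of Ldha, 73.7% of that of Slc16a1, 67.3% of that of Hk2 and 62.0% of that of Cat. Rest had no entry.

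All 9 genes were higher on average in the KO-labelled libraries, and Ldha, Slc16a1, Oat, Cat and Rest rose at an adjusted p under 0.05. The 5 calls of 9 stand beside 4.14% of all tested genes called higher and 6.76% called in either direction. None of the 9 fell, against 2.63% of all tested genes. The groups did not overlap in 7 of the 9 genes, all with the KO-labelled libraries above, beside 16.9% of all tested genes (32.1% in either direction). An unadjusted p under 0.05 was reached by 8 of the 9, and 14.9% of all tested genes reached it in the higher direction. The median log2 fold change was 1.16 over the 9 genes and 0.01 over all tested genes. Summed over the 9 genes, the counts were 1642, 1692 and 1511 in the controls, against 3086, 2797 and 2132 in the KO-labelled ones. How many of the 9 were called depended on single libraries, with 1 called once KO-labelled replicate 1 was left out, 2 once control 2 was, 5 once control 1 was, and 3 once control 3 or either of the other KO-labelled replicates was.

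**Figure D1:**
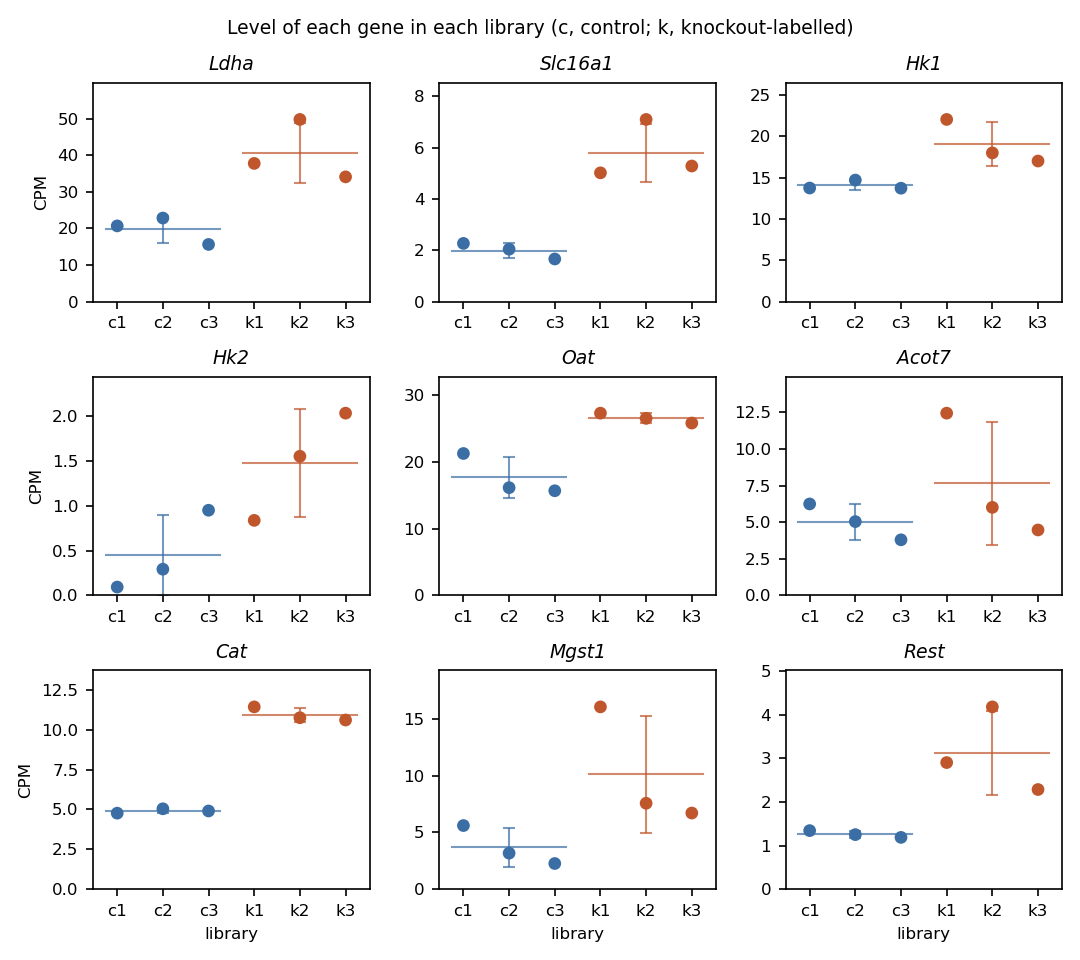
Normalised level (CPM, vertical axes from 0) of each of the 9 genes in every library, with controls in blue and KO-labelled libraries in orange, a horizontal line for the mean and a vertical bar for the SD (n = 3). Only Hk2 and Acot7 have overlapping groups, and in Acot7 and Mgst1 KO-labelled replicate 1 stands well above the other two. The lower SD bar of the Hk2 controls is cut at 0.

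The 9 genes did not start from one low level. Per kilobase of exon the control means ran from 10.2 CPM per kb for Ldha through 8.20 for Oat, 3.90 for Mgst1, 3.12 for Hk1, 2.70 for Acot7, 1.92 for Cat, 0.449 for Slc16a1 and 0.295 for Rest to 0.0807 for Hk2. Neighbours in that order had overlapping control ranges for Ldha and Oat, for Mgst1 and Hk1 and for Hk1 and Acot7, and separate ranges otherwise. In the controls Ldha lay above 70.4% and Oat above 65.7% of tested genes on this scale, so whole-islet RNA held both at levels that were not low. Slc16a1 lay above 12.6%, Rest above 8.1% and Hk2 above 1.0% of tested genes. In the KO-labelled libraries Ldha lay above 84.2%, Mgst1 above 71.8% and Cat above 50.4%.

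**Figure D2:**
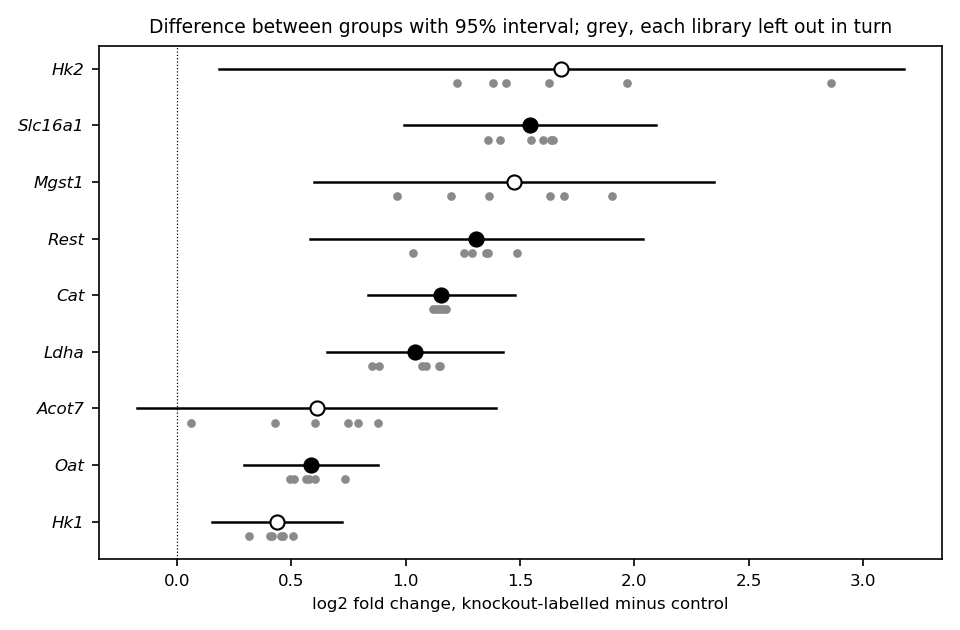
Log2 fold change, KO-labelled against control, of the 9 genes with 95% confidence intervals from the edgeR fit, filled where the adjusted p is under 0.05, and grey points for the fits without each library in turn. Every estimate is above 0, Cat has a narrow interval from 0.84 to 1.48, and only the interval of Acot7 includes 0.

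The lactate branch was higher in both of its followed genes. Ldha encodes the subunit of lactate dehydrogenase that turns pyruvate into lactate and lies at chr7:46845804-46855627 on the plus strand (mm10, as for all positions given). Its level was 20.7, 22.8 and 15.6 CPM in the controls, against 37.8, 49.8 and 34.1 CPM in the KO-labelled ones. The lowest KO-labelled library thus stood above the highest control. Ldha rose 2.06-fold, from 19.7 ± 3.70 to 40.5 ± 8.20 CPM (SD, n = 3 each; log2 fold change 1.04 ± 0.17, edgeR adjusted p = 0.0165). The call was lost without KO-labelled replicate 1 (adjusted p = 0.0517) and held when any of the other 5 was left out.

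Slc16a1 encodes MCT1, the transporter that carries lactate and pyruvate across the plasma membrane, and lies at chr3:104638664-104658462 on the plus strand. It was counted 49, 49 and 42 times in the controls, against 114, 151 and 104 times in the KO-labelled ones. These counts were 2.27, 2.04 and 1.66 CPM against 5.02, 7.10 and 5.28 CPM. The groups were far apart relative to their spread, although the gene remained rare. Slc16a1 rose 2.91-fold, from 1.99 ± 0.307 to 5.80 ± 1.13 CPM (SD, n = 3 each; log2 fold change 1.54 ± 0.25, edgeR adjusted p = 0.0146). The call was lost without control 2 (adjusted p = 0.0591) and without KO-labelled replicate 1 (adjusted p = 0.0514), by small margins.

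None of the partner genes of this branch rose at the threshold. Ldhb, the other main lactate dehydrogenase subunit, had 11.7 ± 2.16 CPM in the controls, against 8.73 ± 3.56 CPM in the KO-labelled ones (SD, n = 3 each; log2 fold change −0.41 ± 0.28, adjusted p = 0.376). Per kilobase, Ldhb was 7.49, 10.7 and 8.58 CPM per kb in the controls, against 9.11, 7.24 and 3.74 in the KO-labelled ones. The 2 subunit genes were thus close to each other in the controls. Ldha made up 58.9%, 52.4% and 48.5% of the summed per-kilobase level of Ldha and Ldhb in the controls, against 68.2%, 78.1% and 82.5% in the KO-labelled ones. The mean share was 53.3% ± 5.22 and 76.3% ± 7.32 (SD, n = 3 each), a difference of 23.0 percentage points (exact two-sided permutation p = 0.1, the smallest that 3 against 3 libraries can give). All 3 KO-labelled shares stood above all 3 control shares.

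Slc16a3, which encodes the lactate exporter MCT4, was 4.49, 2.71 and 1.38 CPM in the controls, against 4.18, 4.04 and 3.56 CPM in the KO-labelled ones (log2 fold change 0.47 ± 0.37, adjusted p = 0.459). Its groups overlapped because control 1 was as high as the KO-labelled libraries. Basigin (Bsg), the chaperone that takes both transporters to the membrane, was 661 ± 5.73 and 739 ± 173 CPM (SD, n = 3 each; log2 fold change 0.16 ± 0.17, adjusted p = 0.571). Embigin (Emb), a related chaperone, fell from a control mean of 382 ± 12.6 to 268 ± 23.2 CPM (log2 fold change −0.51 ± 0.11, adjusted p = 0.0331). Pyruvate carboxylase (Pcx), which feeds pyruvate into oxaloacetate, fell from a control mean of 110.0 ± 1.52 to 78.0 ± 13.4 CPM (log2 fold change −0.50 ± 0.13, adjusted p = 0.0464). The mitochondrial pyruvate carrier subunit Mpc1 had a log2 fold change of −0.13 ± 0.17 (adjusted p = 0.681) and the pyruvate dehydrogenase kinase Pdk1 one of 0.34 ± 0.14 (adjusted p = 0.158). Over the 16 tested genes of lactate and pyruvate handling other than the followed genes, 0 rose, 2 fell and 14 were not called, with a median log2 fold change of 0.01. Among all tested genes, 4.14% were called higher and 2.63% lower.

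**Figure D3:**
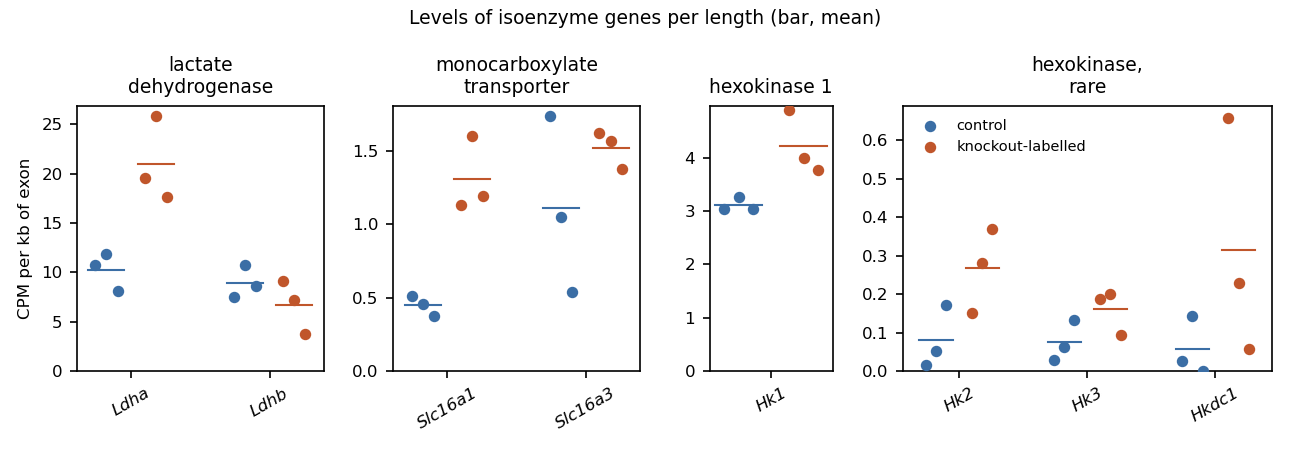
Levels per kilobase of exon (CPM per kb, vertical axes from 0) in each library of the lactate dehydrogenase, monocarboxylate transporter and hexokinase genes, with controls in blue, KO-labelled libraries in orange and a bar for each mean. Ldha and Slc16a1 separate the groups while Ldhb and Slc16a3 overlap, and Hk2, Hk3 and Hkdc1 lie far below Hk1.

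The hexokinases that β cells keep low were higher on average, but neither passed the test. Hk1 encodes the high-affinity hexokinase of most tissues and lies at chr10:62268855-62379908 on the minus strand. It was 13.7, 14.7 and 13.7 CPM in the controls, against 22.0, 18.0 and 17.0 CPM in the KO-labelled ones. The controls lay close together and all 3 below the KO-labelled libraries. The means were 14.1 ± 0.563 and 19.0 ± 2.67 CPM (SD, n = 3 each; log2 fold change 0.44 ± 0.13, adjusted p = 0.0654).

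Hk2 encodes the inducible hexokinase of muscle and fat and lies at chr6:82725027-82774454 on the minus strand. Only 2, 7 and 24 reads were counted in the controls, against 19, 33 and 40 in the KO-labelled ones. Control 3 exceeded KO-labelled replicate 1, and at this depth the 95% confidence interval of the log2 fold change ran from 0.19 to 3.18 around 1.68 ± 0.67 (adjusted p = 0.147). The CV among the controls was 101%, the widest of the 9 genes.

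Hkdc1 and Hk3, further hexokinase genes, were near the limit of detection. Hkdc1 was counted 2, 12 and 0 times in the controls, against 52, 17 and 4 times in the KO-labelled ones (adjusted p = 0.164). Hk3 was counted 2, 5 and 11 times against 14, 14 and 6 times (adjusted p = 0.310), and its exons overlap the more abundant Unc5a, from which reads cannot be told apart without strand. The glucose transporter of mouse β cells, GLUT2 (Slc2a2), fell from a control mean of 519 ± 47.1 to 233 ± 83.0 CPM (log2 fold change −1.15 ± 0.24, adjusted p = 0.0284). GLUT1 (Slc2a1), which most tissues use, was 26.8 ± 3.84 and 29.6 ± 4.84 CPM (log2 fold change 0.14 ± 0.15, adjusted p = 0.573). The fructose-2,6-bisphosphate enzymes, which tune glycolytic flux, moved in opposite directions, Pfkfb2 falling from 52.3 ± 3.76 to 31.1 ± 5.69 CPM (adjusted p = 0.0197, with exons that overlap Yod1) and Pfkfb3 rising from 5.19 ± 0.719 to 8.74 ± 0.370 CPM (adjusted p = 0.0339). Pfkfb3 lost its call whichever of the 6 libraries was left out, and Pfkfb2 kept its call in 3 of those 6 fits. Over the 15 tested genes of glucose entry and upper glycolysis, 1 rose, 2 fell and 12 were not called, with a median log2 fold change of 0.09. The shares over all tested genes were 4.14% called higher and 2.63% called lower.

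Ornithine aminotransferase (Oat), the mitochondrial enzyme that links ornithine to glutamate and proline, rose by a smaller factor. It lies at chr7:132557475-132576398 on the minus strand. Oat was 21.2, 16.1 and 15.7 CPM in the controls, against 27.3, 26.5 and 25.8 CPM in the KO-labelled ones. The KO-labelled libraries were nearly equal, and the spread lay in the controls, with control 1 nearest to them. Oat rose 1.5-fold, from 17.7 ± 3.10 to 26.5 ± 0.741 CPM (SD, n = 3 each; log2 fold change 0.59 ± 0.13, edgeR adjusted p = 0.0339). The call held without control 1 (adjusted p = 0.0142) and was lost when any of the other 5 libraries was left out (adjusted p between 0.0628 and 0.125).

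Other enzymes that meet ornithine, proline and glutamate moved in both directions. Ornithine decarboxylase (Odc1), which starts polyamine synthesis from ornithine, rose from 108 ± 17.8 to 189 ± 19.7 CPM (SD, n = 3 each; log2 fold change 0.80 ± 0.14, adjusted p = 0.0169). Pycr1, which makes proline in mitochondria, rose from a control mean of 25.2 ± 4.55 to 44.7 ± 13.8 CPM (log2 fold change 0.83 ± 0.20, adjusted p = 0.0433). Glutamine synthetase (Glul) fell from a control mean of 71.1 ± 7.02 to 43.5 ± 2.98 CPM (log2 fold change −0.71 ± 0.11, adjusted p = 0.0123). These 3 were the calls among 12 tested genes, beside 6.76% of all tested genes called in either direction. The other 9 were not called, and the median log2 fold change of the 12 was 0.07.

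Acot7, a thioesterase that releases fatty acids from long-chain acyl-CoA, did not pass the test. It lies at chr4:152178100-152271855 on the plus strand. It was 6.25, 5.04 and 3.80 CPM in the controls, against 12.5, 6.01 and 4.47 CPM in the KO-labelled ones. Only KO-labelled replicate 1 stood above the highest control. The log2 fold change was 0.61 ± 0.35 (95% confidence interval −0.17 to 1.40, adjusted p = 0.297), and 0.06 without that library. Of 15 other tested acyl-CoA genes, 0 were called by edgeR with all libraries and the filter on low counts. An unadjusted p under 0.05 was reached by 5 of the 15, beside 3642 of all 13736 tested genes in either direction. Their median log2 fold change was −0.06, and 6.76% of all tested genes were called. By edgeR 1 fell with no filter on low counts and 1 without control 1, and 1 fell by DESeq2.

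Catalase (Cat), the peroxisomal enzyme that breaks down hydrogen peroxide, gave the most even difference of the 9 genes. It lies at chr2:103453904-103485153 on the minus strand. Cat was 4.77, 5.04 and 4.90 CPM in the controls, against 11.4, 10.8 and 10.6 CPM in the KO-labelled ones. The CV was 2.80% among the controls and 4.03% among the KO-labelled libraries, and the groups were far apart. Cat rose 2.23-fold, from 4.90 ± 0.138 to 10.9 ± 0.441 CPM (SD, n = 3 each; log2 fold change 1.16 ± 0.14, edgeR adjusted p = 0.00735). The call held without each of the 6 libraries in turn, with log2 fold changes between 1.12 and 1.18 and adjusted p between 0.0131 and 0.0392, and none of the other 8 genes kept its call in all 6.

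Mgst1, a membrane-bound glutathione transferase and peroxidase of the endoplasmic reticulum and mitochondria, varied widely within both groups. It lies at chr6:138140537-138156752 on the plus strand. Mgst1 was 5.60, 3.17 and 2.25 CPM in the controls, against 16.1, 7.57 and 6.70 CPM in the KO-labelled ones. The groups did not overlap, but replicate 1 was the highest library of each group. The log2 fold change was 1.47 ± 0.39 (adjusted p = 0.0522), and it passed without control 1 (1.90, adjusted p = 0.0318). It also passed with a replicate block (1.45 ± 0.18, adjusted p = 0.0101), by DESeq2 (adjusted p = 0.00164) and when low counts were not filtered (adjusted p = 0.0198).

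Few other peroxide and glutathione enzymes passed the test by edgeR, and how many did depended on the scaling and the tool. The secreted superoxide dismutase Sod3 rose from 3.34 ± 1.24 to 7.28 ± 0.165 CPM (SD, n = 3 each; adjusted p = 0.0346), and the peroxiredoxin of the endoplasmic reticulum, Prdx4, rose from 26.8 ± 3.65 to 55.0 ± 14.3 CPM (adjusted p = 0.0169). The glutathione transferase Gstm1 fell from 58.7 ± 12.4 to 37.0 ± 5.91 CPM (adjusted p = 0.0431). Glutathione peroxidase 1 (Gpx1), which shares the peroxide substrate of catalase, had 136 ± 19.8 and 174 ± 2.23 CPM (log2 fold change 0.36 ± 0.12, adjusted p = 0.0933). Of 28 tested genes, 2 rose and 1 fell, 25 were not called, and 21 of the log2 fold changes were above 0 (median 0.22). Among all 13736 tested genes, 4.14% were called higher, 2.63% were called lower and 6994 had a log2 fold change above 0. The 2 that rose became 5 with upper-quartile factors or no filter on low counts, 6 with DESeq2, 1 without control 2 or KO-labelled replicate 3, and 0 without control 3 or KO-labelled replicate 1.

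Rest, the zinc finger repressor of neuronal genes, was the rarest of the called genes. It lies at chr5:77265494-77283697 on the plus strand. It was counted 29, 30 and 30 times in the controls, against 66, 89 and 45 times in the KO-labelled ones. The controls were level, while the highest KO-labelled library stood well above the lowest KO-labelled one. Rest rose 2.48-fold, from 1.26 ± 0.0782 to 3.12 ± 0.967 CPM (SD, n = 3 each; log2 fold change 1.31 ± 0.33, edgeR adjusted p = 0.0443). The call was lost whichever of the 6 libraries was left out (adjusted p between 0.0567 and 0.133), with a replicate block (adjusted p = 0.0663) and with limma-voom (adjusted p = 0.0509).

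No cofactor or target gene of REST on these lists rose at the threshold by edgeR with all libraries and the filter on low counts. Over all 13736 tested genes, 4.14% were called higher, 2.63% were called lower and 3642 had an unadjusted p under 0.05. On lists this short, 0 or 1 call is near those shares. Of 13 tested cofactors and regulators of REST, 0 were called in that fit and 6 had an unadjusted p under 0.05. By edgeR 3 fell with no filter on low counts and 1 without control 1, and 2 fell by DESeq2. Their median log2 fold change was −0.22, and 10 of the 13 were negative. Of 27 tested neuroendocrine genes known as REST targets, 0 rose, 1 fell and 26 were not called, with a median log2 fold change of 0.11. A target gene rose, 1 in each case, with no filter on low counts, without control 1 and without KO-labelled replicate 2. The one that fell was the scaffold gene Mapk8ip2, from 119 ± 2.32 to 90.2 ± 3.54 CPM (SD, n = 3 each; log2 fold change −0.40 ± 0.09, adjusted p = 0.0307).

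Genes known as hypoxia-inducible, whose promoters often carry ACGTG, did not share a direction. Of 14 tested, 0 rose, 1 fell and 13 were not called, with 9 positive and 5 negative and a median log2 fold change of 0.07 (1 rose and 2 fell by DESeq2). These counts are near those over all tested genes, with 4.14% called higher, 2.63% called lower and 6994 of 13736 positive. The one that fell was Vegfa, the growth factor that islet cells send to their capillaries, from 266 ± 26.1 to 166 ± 29.0 CPM (SD, n = 3 each; log2 fold change −0.68 ± 0.14, adjusted p = 0.0301).

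A further list of genes that β cells are known to keep low moved in the same direction as the 9. Of 13 tested, 7 rose, 0 fell and 6 were not called, all 13 had a log2 fold change above 0 and the median was 1.02, beside 4.14% of all tested genes called higher. The 7 calls became 0 without KO-labelled replicate 1, 2 without control 2, 3 without control 3, 4 without KO-labelled replicate 2 and 0 with either marker score (acinar or myeloid) as a covariate, while 8 or 9 of the 13 had an unadjusted p under 0.05 when 1 library was left out, 5 with the acinar and 2 with the myeloid covariate. The list was chosen with earlier results of these libraries known, so it is not independent evidence of direction. Its calls with the smallest p were Pdgfra, the platelet-derived growth factor receptor α (0.410 ± 0.0682 to 2.65 ± 0.843 CPM, adjusted p = 0.0129), the growth factor binding protein Igfbp4 (11.4 ± 3.37 to 27.8 ± 2.79 CPM, adjusted p = 0.0131) and the chemokine Cxcl12 (4.24 ± 0.869 to 9.51 ± 1.19 CPM, adjusted p = 0.0169). Pdgfra stood among the stellate cell markers as well.

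**Figure D4:**
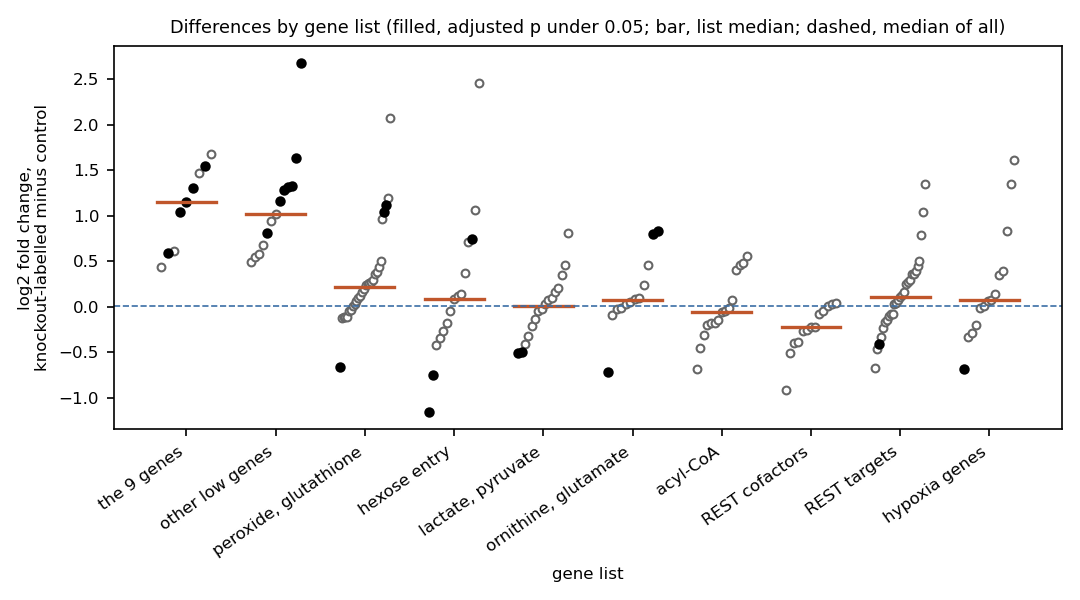
Log2 fold change, KO-labelled against control, of every tested gene of the 9 followed genes and the pathway lists, with genes past an adjusted p of 0.05 filled and a bar for each list's median. The followed genes (median 1.16) and the further low genes (median 1.02) lie above 0, and the medians of the other lists lie between −0.22 and 0.22.

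Calls on the pathway lists depended on single libraries. Over the 151 tested genes of all 9 lists, 0 were called by edgeR without KO-labelled replicate 1, and 51 had an unadjusted p under 0.05. Without control 2 there were 3 higher and 0 lower calls, and without control 3 there were 3 higher and 2 lower.

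Most of the 9 genes are also expressed by islet cells other than β cells, and markers of several of those cells were higher in the same libraries. The summed level of 17 acinar genes was 11879, 10515 and 1086 CPM in the controls, against 28271, 30853 and 32440 CPM in the KO-labelled ones, with all 15 tested members positive and 1 called. The 10 macrophage and myeloid genes summed to 144, 140 and 150 CPM in the controls, against 244, 311 and 250 CPM in the KO-labelled ones, with 5 called. The 9 stellate cell and fibroblast genes summed to 87.1, 174 and 323 CPM against 438, 382 and 345 CPM, with 3 called. Endothelial (4 of 8 called), duct (1 of 6 tested called) and Schwann cell genes (0 of 6 called, by edgeR) also had sums that did not overlap, and so did the delta and PP cell genes (2 of 5 called). Of all tested genes, 4.14% were called higher and 16.9% did not overlap with the KO-labelled libraries above. Krt7 made up 196 of the mean duct sum of 292 CPM in the controls and 198 of 451 CPM in the KO-labelled libraries (log2 fold change 0.01). Plvap made up 183 of the mean endothelial sum of 377 CPM in the controls, and its groups overlapped. The groups did not overlap in 6 of the 8 endothelial genes. Ppy also overlapped, and 4 of the 5 delta and PP cell genes did not. The sums overlapped for β cell, alpha cell and lymphocyte genes. The lymphocyte sum was 13.9, 16.9 and 9.61 CPM in the controls, against 6.60, 61.1 and 14.7 CPM in the KO-labelled ones. KO-labelled replicate 2, which stood out there, was also the highest library for Ldha, Slc16a1 and Rest (49.8, 7.10 and 4.18 CPM). Oat and Cat were highest in KO-labelled replicate 1. Whether these go together was not tested. The 5 haemoglobin genes of the red blood cell list had no count in any library, and no marker of the other lists was at 0 in all libraries.

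Among the controls, control 3 had the lowest acinar sum and the highest stellate sum, and control 1 the highest acinar and the lowest stellate sum. Between these 2 libraries, control 1 first, Ldha was 20.7 and 15.6 CPM, Slc16a1 2.27 and 1.66, Oat 21.2 and 15.7, Acot7 6.25 and 3.80 and Mgst1 5.60 and 2.25 CPM, each higher in control 1. Hk2 was higher in control 3, at 0.0926 and 0.949 CPM. Hk1 (13.7 in both), Cat (4.77 and 4.90) and Rest (1.34 and 1.19 CPM) were closer. Control 2 had an acinar sum of 10515 CPM, close to that of control 1. Its Ldha, at 22.8 CPM, was above that of control 1. Its Oat (16.1), Mgst1 (3.17), Slc16a1 (2.04) and Acot7 (5.04 CPM) lay between controls 1 and 3, with Oat and Mgst1 nearer to control 3. The Slc16a1 values rested on 49, 49 and 42 counts in controls 1, 2 and 3. The myeloid sum was nearly level among the controls. With a score of the acinar genes as a covariate, 0 of the 9 genes and 0 of all tested genes were called by edgeR, 5 of the 9 and 1420 of all genes had an unadjusted p under 0.05, and the median log2 fold change of the 9 was 0.91. With a myeloid score as a covariate, 0 of the 9 and 0 of all genes were called, 1 of the 9 and 1004 of all genes had an unadjusted p under 0.05, and the median was 0.92. In these fits, acinar first, the log2 fold change was 0.70 and 0.67 for Ldha, 1.25 and 0.83 for Slc16a1, 0.43 and 0.93 for Hk1, 3.77 and −1.94 for Hk2, 0.39 and 0.92 for Oat, 0.30 and 2.93 for Acot7, 1.17 and 1.29 for Cat, 0.91 and 4.33 for Mgst1, and 1.21 and −0.068 for Rest. For the 5 called genes the SE was wider in both fits than without a covariate. In the acinar fit it was 0.23 for Ldha, 0.39 for Slc16a1, 0.19 for Oat, 0.24 for Cat and 0.54 for Rest. In the myeloid fit it was 0.77, 1.04, 0.58, 0.62 and 1.33 for the same genes. Both scores were higher in every KO-labelled library than in every control, so these fits cannot separate score from group. Shifts of single genes between the fits are therefore given without a reading. The part of these cells in the results was not tested further.

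**Figure D5:**
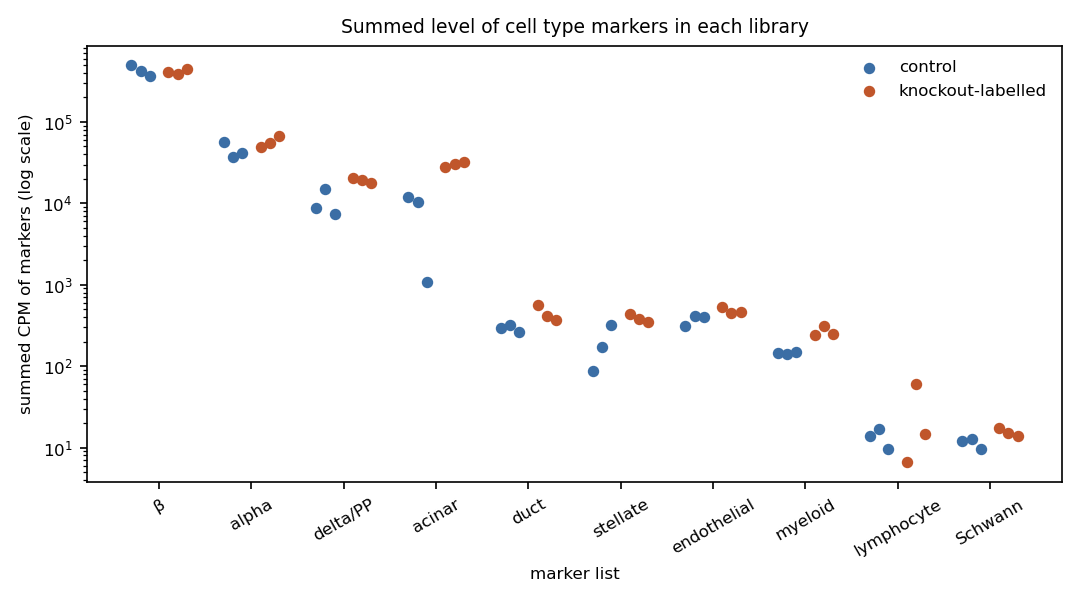
Summed level (CPM, log axis) of each cell type's marker genes in every library, with controls in blue and KO-labelled libraries in orange. The acinar sum of control 3 lies at 1086 CPM, far below the other 5 libraries, and the myeloid sums of the 3 controls lie between 140.2 and 150 CPM, below those of all 3 KO-labelled libraries.

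The genes whose profile over the 6 libraries was most like the mean profile of the 9 were Plp2, Sdpr, Fcgrt, Gja1 and Flna, among 9996 candidates outside the list. Likeness was the mean absolute difference of log2 CPM values centred per gene, and it ran from 0.07 for Plp2 to 0.11 for Flna. The mean centred profile of the 9 was −0.52, −0.54 and −0.59 in the controls, against 0.65, 0.62 and 0.38 in the KO-labelled ones. All 5 differed between the groups by a log2 fold change between 0.90 and 1.18. That difference follows from the choice, since the profile they were matched to differs between the groups. The points share their libraries, and the likeness is a description of these 6 libraries.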

How the data were processed

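The deposited table held a length and, for each library, a count per gene; the counts are whole numbers with unequal library totals, so they were taken as raw. The labels' protocols give poly-dT primed SMART-Seq v4 cDNA from 10 ng of RNA, sheared and made into Ion Plus libraries, with no record of strand, so overlapping genes were named as uncertain. The submitters' processing notes name the build mm10 and the tools STAR 2.4.2a, Subread 1.5.0, featureCounts and edgeR. The gene lengths in bp that the authors deposited served only for levels per kilobase.

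Counts were tested with edgeR 4.0.16 in R 4.3.3 (filterByExpr, TMM factors, quasi-likelihood F test, group as the only term), and p-values were adjusted by Benjamini-Hochberg over all 13736 tested genes, with a threshold of 0.05. CPM values use TMM-scaled library sizes. The procedure was tested on simulated counts in which 50 genes each were changed 1.5-, 2-, 4- or 8-fold. It recovered 22%, 62%, 94% and 100% of them, and 12 of its 151 calls were on unchanged genes. Only 200 genes were changed there, while 929 were called in the real data. Adjusted p-values depend on how many genes differ, so these rates need not hold for the real fit. A gene that was not called may still differ, above all at changes of 2-fold or less. No 2 libraries of a group agreed within sampling noise. The members and lists were chosen with earlier results of these data known. The text names the 9 genes, up to 3 called genes with the smallest p per list, a set of partner genes whatever their p, and the 5 genes closest in profile. Alternatives were other scaling factors, other filters, DESeq2 1.42.0, limma-voom (limma 3.58.1), a replicate block, marker scores as covariates, exclusion of acinar and hormone genes, and each library left out. Motifs were searched in RefSeq promoters of 300 bases. One partner gene and a share that needs it are not reported here.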

Additional observations from a re-analysis of the deposited data

How the results depend on the processing

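The number of genes called, 929, was 1413 with no filter on low counts, 1702 with DESeq2 and 0 with the acinar or the myeloid score as a covariate, and ran from 64 to 968 when 1 library was left out. The lowest was reached with KO-labelled replicate 1 left out, and 99, 216 and 344 genes were called with control 2, control 3 or KO-labelled replicate 3 left out. Of the 9 metabolic genes, 5 were called with edgeR, 0 with either covariate and 1 to 5 when 1 library was left out. With DESeq2 or no filter 6 were called, with limma-voom 4. Signs turned for Hk2 (−1.94), Rest (−0.068) and Hk3 (−1.45) with the myeloid covariate, for Slc2a1 (−0.025) and Slc16a3 (−0.44) with the acinar covariate, for Bsg without KO-labelled replicate 3 (−0.049) and for Mpc1 without control 1 (0.024, the top of a range from −0.25). None of these passed the threshold there, and the cause was not tested. The difference in the Ldha share ran from 19.9 to 27.0 percentage points when 1 library was left out, and was 19.8 without length scaling. Same-numbered libraries did not deviate together (correlations of −0.038, −0.009 and 0.057), so the numbers were not taken as pairs. With a replicate block 826 genes and 5 of the 9 were called, Mgst1 in place of Rest, and the Ldha share difference had p = 0.25, the smallest an exact paired permutation of 3 can give. Of 17 called genes named beside the 9 and the 5 closest in profile, 0 kept their call in all 6 of the fits that left out a library, with calls in 0 to 5 of them. Counts per control were low for Slc16a1 (42 to 49), Rest (29 to 30) and Hk2 (2 to 24); whether depth limits their tests was not tested.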
